A study of Mus musculus with 93 samples.

Results

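The nuclear genes of the respiratory chain and of the mitochondrial ribosome were followed in mouse liver after a single oral dose of a synthetic triglyceride or of a PPARα agonist. The members were the probesets that carried 1 gene symbol in the platform annotation, where that symbol began with Nduf, Sdh, Uqcr, Atp5, Mrpl or Mrps, or with Cox followed by a digit from 4 to 8, with Cox6b2 left out. This gave 246 of 11412 probesets and 156 of 6661 genes. The rule reads symbols and no measured value, but it was applied to probesets that had already passed a filter on variation, and 156 of the 177 RefSeq genes whose symbols fit it have a member probeset. Complex I contributed 33 genes and its assembly factors 6, complex II 4 genes and its assembly factors 4, complex III 8, complex IV 9, the ATP synthase (complex V) 17, and the mitochondrial ribosome 47 genes of the large and 28 of the small subunit. Another 10 probesets that list a member gene together with other genes were left out.

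RNA of 93 livers of male mice was hybridized to whole-genome Affymetrix arrays, 1 mouse per array. The mice were WT (129S1/SvImJ, 45 mice) or PPARα −/− (129S4/SvJae, 48 mice), so the substrain cannot be told apart from the genotype. All were fasted for 4 hours, received 400 µl by gavage and were killed 6 hours later. The controls received 0.5% carboxymethyl cellulose, WY14643 and fenofibrate (synthetic PPARα agonists) were given at 10 mg/ml in the same vehicle, and the triglycerides each held a single fatty acid, namely tridocosahexaenoin (C22:6), trieicosapentaenoin (C20:5), triolein (C18:1), trilinolenin (C18:3), trilinolein (C18:2) and tridecanoin (C10:0). A first run of 56 arrays held controls, WY14643, fenofibrate, C22:6, C20:5 and C18:1, and a later run of 37 arrays, done some months afterwards, held its own controls, C18:3, C18:2 and C10:0. WT groups had 5 mice, except 3 controls in the first run, 4 in the later run, 4 with WY14643 and 4 with C18:2. PPARα −/− groups had 5 mice, except 4 controls in the later run and 4 with C20:5. The labels give ages of 12 to 20 weeks for first-run controls and WY14643 mice of both genotypes and 8 to 24 weeks for all others, so the effects of fenofibrate and of the first-run triglycerides cannot be told apart from an effect of age range.

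The respiratory chain of the inner mitochondrial membrane passes electrons from NADH and succinate through complexes I to IV to oxygen, and the ATP synthase uses the proton gradient this builds. A few of the subunits are encoded in mitochondrial DNA and are made by the mitochondrial ribosome, whereas every protein of that ribosome and all members described here are encoded in the nucleus. In liver this machinery takes up the electrons released by fatty acid oxidation, the pathway that PPARα switches on, and the expression of its genes is commonly linked to the transcription factors NRF1, GABP (of the ETS family) and YY1.

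Promoter sequences are shown for 4 members that carry the results below and that differ in these motifs: Ndufaf4, which rose with PPARα agonists in WT livers, Sdhaf1 and Mrps12, which fell, and Mrpl17, which was lower in PPARα −/− controls of both runs. Each is the RefSeq sequence (GRCm38.p6) from 250 bases before to 50 bases after the annotated start, written 5′ to 3′ on the strand of the gene, and capitals mark motif matches on either strand. The motifs searched were GCATGCG (NRF1), CCGGAAG (ETS family), AAGATGG (YY1) and AGGTCANAGGTCA with up to 2 mismatches (DR1, the kind of element PPARα binds). GCATGCG and its reverse complement CGCATGC overlap within CGCATGCG.
Ndufaf4, chr4:24897833-24898132, plus strand: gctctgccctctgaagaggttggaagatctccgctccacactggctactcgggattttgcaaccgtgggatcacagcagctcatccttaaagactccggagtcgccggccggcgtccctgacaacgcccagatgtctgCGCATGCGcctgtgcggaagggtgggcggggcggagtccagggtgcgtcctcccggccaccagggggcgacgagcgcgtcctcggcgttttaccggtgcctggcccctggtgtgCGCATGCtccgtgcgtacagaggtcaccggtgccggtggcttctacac
Sdhaf1, chr7:30322326-30322625, minus strand: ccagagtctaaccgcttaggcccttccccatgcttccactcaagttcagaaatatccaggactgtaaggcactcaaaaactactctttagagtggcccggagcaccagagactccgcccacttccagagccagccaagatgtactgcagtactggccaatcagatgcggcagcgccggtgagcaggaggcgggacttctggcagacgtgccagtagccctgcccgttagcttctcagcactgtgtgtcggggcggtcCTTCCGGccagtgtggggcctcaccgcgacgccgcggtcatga
Mrps12, chr7:28741772-28742071, minus strand: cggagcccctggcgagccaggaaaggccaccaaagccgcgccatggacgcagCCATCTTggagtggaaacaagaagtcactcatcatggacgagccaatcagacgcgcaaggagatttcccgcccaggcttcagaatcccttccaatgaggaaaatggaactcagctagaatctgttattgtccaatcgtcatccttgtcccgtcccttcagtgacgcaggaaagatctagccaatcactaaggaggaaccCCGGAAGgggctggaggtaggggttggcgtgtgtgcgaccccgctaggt
Mrpl17, chr7:105811038-105811337, minus strand: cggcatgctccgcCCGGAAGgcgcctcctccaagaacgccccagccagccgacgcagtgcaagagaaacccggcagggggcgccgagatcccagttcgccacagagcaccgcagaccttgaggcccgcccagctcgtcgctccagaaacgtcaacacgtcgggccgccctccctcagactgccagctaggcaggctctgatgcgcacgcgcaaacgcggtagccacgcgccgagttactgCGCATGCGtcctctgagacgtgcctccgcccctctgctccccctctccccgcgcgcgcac
The Ndufaf4 window held NRF1 letters at 2 places, Sdhaf1 held the ETS letters just past its start, Mrps12 held the ETS and YY1 letters, and Mrpl17 held the ETS and NRF1 letters. The 4 windows shown all hold a match and do not stand for the members that changed. The windows of Mrps31, Mrps30, Mrps6, Mrpl45 and Mrpl41, which also changed with agonists in WT livers, held no match to any motif searched.

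Promoters were found for 135 of the 156 member genes. The NRF1 letters were present in 18 of them (13.3%, against 3.64% of all 27025 promoters), the ETS letters in 44 (32.6% against 9.12%) and the YY1 letters in 21 (15.6% against 6.48%). The DR1 letters were present in 3 (2.22% against 3.81%). These shares describe the letters in a 300-base window and do not show binding.

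Ppara itself was checked first. With 1 of its 3 probesets (1457721_at) the log2 signal was at most 7.93 in every PPARα −/− liver and at least 8.10 in every WT liver, and with the other two the genotypes overlapped. Arrays of the later run were brighter, with median signals of 154 to 167 against 135 to 145, and treated livers were set only against controls hybridized with them and of the same genotype. Of 10 hepatocyte markers 9 had a probeset among the 11412, with mean log2 signals between 10.7 and 14.15, and Kupffer cell (12 of 12), stellate (7 of 8) and endothelial (6 of 8) markers were also present. In whole liver, fewer cells of a type and less RNA per cell cannot be told apart.

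Members varied little between mice. The within-group SD of the log2 signal had a median of 0.142 over member probesets, with a range of 0.066 to 0.54, against 0.242 over all probesets. The runs differed in level. Later-run controls exceeded first-run controls by a median of 0.38 in WT and 0.45 in PPARα −/− livers, against 0.19 and 0.20 over all probesets, and 220 of 246 members were higher in each genotype. This run difference bears on which members were tested. The inter-quartile range had to reach 0.25 on the log2 scale over the 83 arrays without C10:0, and 200 member probesets (134 genes) of 246 and 10349 of all 11412 probesets passed. Within the first run alone 46 members would have passed and within the later run 75, against 8587 and 8254 probesets in all.

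Changes of the members against control were mostly small, in both genotypes. The test was limma's moderated test on log2 intensities, with p adjusted by Benjamini-Hochberg over all 10349 probesets, and "rose" and "fell" are used for an adjusted p under 0.05. In WT livers 9 members rose and 8 fell with WY14643 (background over all probesets 12.5% higher and 14.1% lower), 2 rose and 5 fell with fenofibrate (7.39% and 6.08%), and 2 rose and 0 fell with C22:6 (3.66% and 2.11%). Single mice moved these counts. Without WT control mouse 2 5 members rose and 9 fell with WY14643, without control mouse 3 6 rose and 5 fell, and without WY14643 mouse 3 6 rose and 8 fell. In these refits 10.4% to 11.4% of all probesets rose and 10.9% to 12.9% fell. With fenofibrate 1 fell without control mouse 2 or fenofibrate mouse 2, 2 fell without fenofibrate mouse 5, and 3 fell without control mouse 1 or 3, and 1 rose without control mouse 3. In these refits 4.44% to 5.48% of all probesets fell, and without control mouse 3 5.88% rose. With C22:6 1 rose without control mouse 2 (1.9% of all probesets). For WY14643 the median absolute change of the 200 members was 0.09 on the log2 scale, against 0.28 over all probesets tested, and for fenofibrate it was 0.09 against 0.21. The 95% interval of the change lay within ±0.5 for 163 of 200 members with WY14643 and for 176 with fenofibrate. With WY14643, 13 members lay above and 20 below every control mouse, which is 6.5% and 10% of the members, against 15.7% and 17.9% of all probesets.

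At the threshold used in the study, an unadjusted p under 0.01, the members again held no more calls than the background in WT livers. With WY14643 9 were higher and 8 lower (background 11.9% and 13%), with fenofibrate 2 and 5 (8.12% and 7.17%), with C22:6 5 and 0 (5.35% and 3.7%) and with C20:5 1 and 0 (2.33% and 0.928%). With C18:1 there were 0 and 1 (1.07% and 1.22%), with C18:3 1 and 0 (4.41% and 2.56%), with C18:2 1 and 0 (2.8% and 1.07%) and with C10:0 1 and 2 (3.43% and 2.22%). In PPARα −/− livers WY14643 gave 0 and 1 (1.2% and 0.483%), fenofibrate 1 and 0 (1.15% and 0.783%), C22:6 0 and 8 (6.84% and 9.31%), C20:5 1 and 0 (0.87% and 0.493%) and C18:1 1 and 1 (3.32% and 2.53%). In the later run C18:3 gave 1 and 20 (7.77% and 5.99%) and C10:0 0 and 17 (4.81% and 6.24%), so that the lower members made up 10% and 8.5% of the 200, while C18:2 gave 1 and 2 (2.82% and 2.12%).

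**Figure D1:**
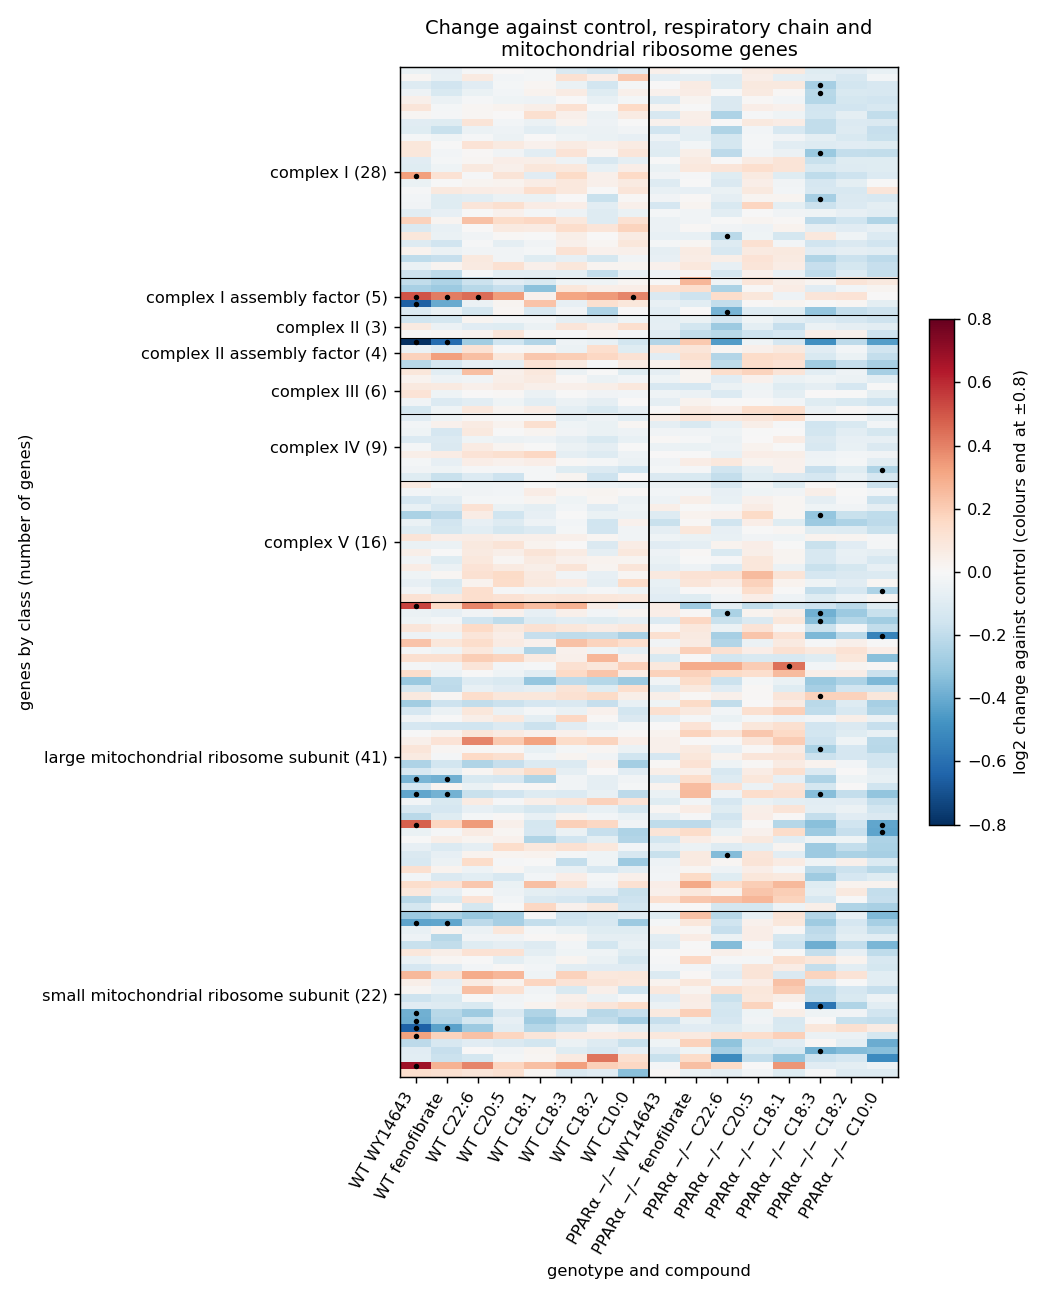
Log2 change against control (colour) of 134 member genes (rows, ordered by complex and ribosome subunit) in 16 comparisons (columns, WT and PPARα −/−). Dots mark an adjusted p under 0.05 (limma). Dots are few, the WT agonist columns hold most of the WT dots, and the PPARα −/− columns of C18:3 and C10:0 are mostly on the side of lower signal.

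Ndufaf4, an assembly factor of complex I, was the member with the most called comparisons. With probeset 1435333_at the log2 signal was 7.82, 7.54 and 7.48 in the 3 WT controls, 8.16, 8.28, 8.33 and 8.28 with WY14643, 8.13, 8.37, 8.01, 8.09 and 8.16 with fenofibrate, and 7.86, 8.19, 8.10, 8.27 and 8.30 with C22:6. All 14 treated livers lay above all 3 controls. The change was 0.65 with WY14643 (SE 0.14, adjusted p = 0.000268), 0.53 with fenofibrate (SE 0.14, adjusted p = 0.00353) and 0.53 with C22:6 (SE 0.14, adjusted p = 0.00947) in limma's test. The second probeset, 1427997_at, gave changes of 0.51, 0.41 and 0.44 (adjusted p = 0.00108, 0.0112 and 0.0126, limma). In PPARα −/− livers 1435333_at read 7.97, 7.40, 7.80, 7.78 and 7.95 in controls and 7.39, 7.57, 7.51, 8.13 and 7.67 with WY14643, and these ranges overlapped. The difference of response between genotypes was 0.78 for WY14643 and 0.72 for fenofibrate with this probeset (adjusted p = 0.00141 and 0.00651, limma), and 0.62 and 0.57 with the other (adjusted p = 0.00351 and 0.0131).

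Genes of the ribosome and of complex I also rose with WY14643 in WT livers. Mrps6, of the small ribosome subunit, read 5.85, 5.36 and 6.05 in controls and 6.49, 6.84, 6.24 and 6.55 with WY14643 (1424440_at), with no overlap. It rose by 0.77 (SE 0.20, adjusted p = 0.00208, limma), and by 0.68 with its second probeset (adjusted p = 0.00307). Mrps6 overlaps Slc5a3, a myo-inositol transporter gene, over 29138 bases in RefSeq, and Slc5a3 also rose with WY14643 (1.37, SE 0.45, adjusted p = 0.0157), and whether the Mrps6 signal holds Slc5a3 transcripts was not tested. Mrpl45, a large-subunit protein that holds the ribosome at the inner membrane, read 5.22, 5.27 and 5.03 in controls and 5.90, 5.64, 5.81 and 5.24 with WY14643. Of the treated livers 1 lay within the range of the controls, and the change was 0.48 (SE 0.16, adjusted p = 0.0171, limma). Smaller rises were found for Mrpl1 (0.54, adjusted p = 0.0333), Ndufb3, an accessory subunit of complex I (0.33, adjusted p = 0.0375), and Mrps33 (0.32, adjusted p = 0.0228), 3 genes that were named after their values were seen. The called Mrpl1 probeset had a mean log2 signal of 5.51, and a brighter one (7.43) was below the spread filter. The Mrpl1 call was lost without any of 3 of the 7 mice compared.

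The largest value among the rises came from a dim probeset. Ndufa12, an accessory subunit of complex I, read 3.91, 3.48 and 4.27 in WT controls and 6.38, 6.06, 6.05 and 5.51 with WY14643 for 1425919_at, a rise of 2.12 (SE 0.31, adjusted p = 1.29e-07, limma). The mean log2 signal of this probeset over all arrays was 3.92, whereas 2 brighter Ndufa12 probesets, with means of 10.6 and 10.9, changed by 0.06 and 0.02 (adjusted p = 0.736 and 0.945), and another bright probeset was below the spread filter. The rise was thus seen with the dim probeset and not with the bright ones, and Ndufa12 was named after its values were seen.

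Falls with the agonists were led by Sdhaf1, which helps to insert iron-sulfur clusters into complex II. Its log2 signal was 6.65, 6.59 and 6.26 in WT controls, 5.54, 5.58, 5.67 and 5.09 with WY14643, and 5.94, 5.68, 6.30, 6.20 and 5.33 with fenofibrate. All WY14643 livers lay below all controls, and 1 fenofibrate liver lay within their range. Sdhaf1 fell by 1.03 with WY14643 (SE 0.21, adjusted p = 9.14e-05, limma) and by 0.61 with fenofibrate (SE 0.20, adjusted p = 0.0308). In PPARα −/− livers it read 6.50, 6.28, 5.90, 6.74 and 6.17 in controls, 6.05, 6.20, 5.78, 6.56 and 5.81 with WY14643 and 6.56, 6.09, 6.59, 6.74 and 6.67 with fenofibrate, which overlap. The response differed between genotypes by −0.80 for WY14643 and −0.82 for fenofibrate (adjusted p = 0.035 and 0.0449, limma). The WY14643 call was lost without any of 7 of the 17 mice compared, and the fenofibrate call without any of 12 of 18. Both were also lost in fits of only the groups compared and with array weights.

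Mrps31, of the small ribosome subunit, also fell with both agonists. It read 8.31, 8.64 and 8.42 in WT controls, 7.78, 7.89, 7.84 and 7.73 with WY14643, and 7.98, 7.97, 8.28, 7.93 and 7.99 with fenofibrate, so that every treated liver lay below every control. The changes were −0.65 (SE 0.12, adjusted p = 1.77e-05) and −0.43 (SE 0.12, adjusted p = 0.00581) in limma's test. In PPARα −/− livers the controls read 8.53, 8.38, 8.24, 8.51 and 8.77 and the WY14643 livers 8.43, 8.31, 8.37, 8.48 and 8.30, and the genotype difference of the response was −0.54 (adjusted p = 0.00996). Ndufaf6, another assembly factor of complex I, read 7.10, 6.93 and 7.27 in WT controls and 6.34, 6.22, 6.58 and 6.64 with WY14643, without overlap. It fell by 0.66 (SE 0.17, adjusted p = 0.00167), with a genotype difference of −0.60 (adjusted p = 0.0465, limma). The call of this difference was lost without any of 10 of the 17 mice compared. Thus 1 assembly factor of complex I rose and another fell with the same agonist.

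**Figure D2:**
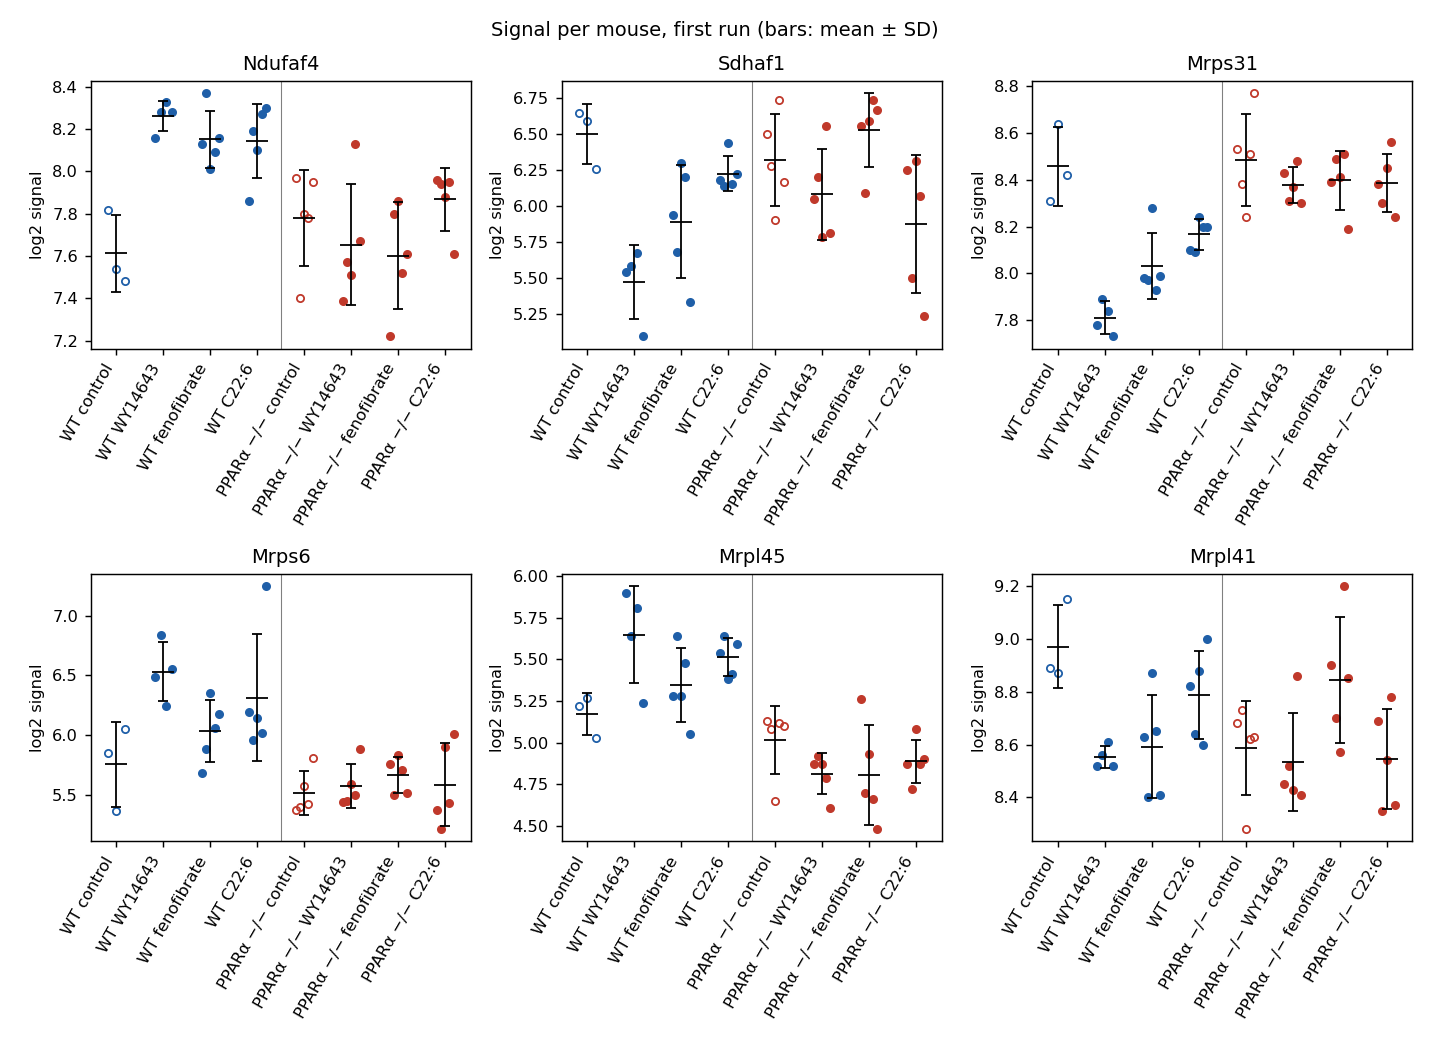
Log2 signal of each mouse (points) for Ndufaf4 (1435333_at), Sdhaf1, Mrps31, Mrps6 (1424440_at), Mrpl45 and Mrpl41 in first-run controls, WY14643, fenofibrate and C22:6 livers of both genotypes. Horizontal bars are group means with SD. WT WY14643 livers lie apart from WT controls for all genes shown except Mrpl45, where 1 mouse overlaps, and the PPARα −/− WY14643 and control ranges overlap for Ndufaf4, Sdhaf1 and Mrps31.

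Further ribosomal genes fell with both agonists in WT livers. Mrps12, a small-subunit protein at the decoding site, read 7.76, 7.88 and 7.87 in controls, 7.16, 7.59, 7.48 and 7.44 with WY14643 and 7.45, 7.35, 7.63, 7.34 and 7.35 with fenofibrate, without overlap, and fell by 0.42 with each (adjusted p = 0.0249 and 0.0367, limma). Mrpl4, of the large subunit, read 8.04, 8.29 and 7.93 in controls, 7.81, 7.75, 7.75 and 7.56 with WY14643 and 7.91, 7.56, 7.80, 7.51 and 7.74 with fenofibrate, and fell by 0.37 and 0.38 (adjusted p = 0.0255 and 0.0256). Mrpl41, also of the large subunit, read 8.89, 8.87 and 9.15 in controls, 8.52, 8.56, 8.61 and 8.52 with WY14643 and 8.63, 8.40, 8.87, 8.65 and 8.41 with fenofibrate (1428588_a_at). For Mrpl4 no treated liver reached the controls, and for Mrpl41 1 fenofibrate liver equalled the lowest control to 2 decimals. Mrpl41 fell by 0.41 and 0.38 with this probeset (adjusted p = 0.00845 and 0.023, limma). Its second probeset, 1428589_at, was called with neither agonist and changed by −0.28 with WY14643. With WY14643 alone Mrps30 fell from 6.93, 6.86 and 6.89 to 6.63, 6.39, 6.50 and 6.51, a change of −0.39 (adjusted p = 0.000873), and Mrps26, named after its value was seen, fell by 0.38 (adjusted p = 0.0355). Of 59 tested probesets of complexes II, III, IV and V 0 were called with either agonist (limma), and 1 with WY14643 and 0 with fenofibrate had an unadjusted p under 0.05. Their changes with WY14643 lay between −0.25 and 0.36, with class medians of 0.03, 0.08, −0.04 and 0.00.

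The response to the agonists differed between genotypes for few members. For WY14643 the change in WT minus that in PPARα −/− livers was higher for 7 and lower for 3 member probesets (background 8.14% and 8.38% of all probesets), and for fenofibrate for 2 and 4 (4.25% and 2.78%). Beside the genes above, Mrps6 differed by 0.69 and 0.71 with its 2 probesets (adjusted p = 0.0326 and 0.049, limma) and Mrpl45 by 0.68 (adjusted p = 0.0137). The 2 Mrps6 calls were lost without any of 6 and any of 12 of the 17 mice compared, and that of Mrpl45 without 1. In PPARα −/− livers Mrps6 (1424440_at) read 5.37, 5.40, 5.57, 5.42 and 5.81 in controls and 5.44, 5.45, 5.59, 5.50 and 5.88 with WY14643, and Mrpl45 read 5.13, 5.08, 4.65, 5.12 and 5.10 and then 4.87, 4.92, 4.87, 4.79 and 4.61. These values overlapped for both genes. For fenofibrate the difference was −0.63 for Mrpl41 with 1 of its 2 probesets (1428588_a_at, adjusted p = 0.00614). It was −0.52 for Mrpl4 (adjusted p = 0.0358) and −0.51 for Ndufaf2, an assembly factor of complex I (adjusted p = 0.0404). Of the 18 mice compared, leaving out any of 8 ended the Mrpl4 call and any of 10 the Ndufaf2 call. Ndufaf2 itself passed in neither genotype. It read 7.09, 7.08 and 7.30 in WT controls and 7.03, 6.82, 7.02, 7.02 and 6.64 with fenofibrate (−0.25, adjusted p = 0.195), and 7.07, 6.73, 6.72, 6.97 and 6.84 in PPARα −/− controls and 7.13, 6.97, 7.15, 7.27 and 7.15 with fenofibrate (0.26, adjusted p = 0.535).

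In PPARα −/− livers 0 members were called with WY14643 (background 0% of all probesets in each direction) and 0 with fenofibrate (background 0.0676% higher and 0.00966% lower). At an unadjusted p under 0.05 there were 3 and 8 members (limma, background 6.35% and 7.39%). For WY14643 the 95% interval of the change lay within ±0.5 for 194 of 200 members and for fenofibrate for 189. The lowest change of any member with WY14643 was −0.73, for 1 probeset of Mrpl15 (1430798_x_at), which was not called. Uqcrc2, Mrpl40 and Mrpl20 were named by the smallest p among the probesets that stand for their genes only. Uqcrc2, a core protein of complex III, changed by −0.13 with WY14643 (adjusted p = 0.773, limma). Mrpl40 changed by 0.25 and Mrpl20 by 0.30 with fenofibrate (adjusted p = 0.49 for each).

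The triglycerides moved few members in WT livers. C22:6 raised the 2 probesets of Ndufaf4 and no other member. Both calls were lost without WT control mouse 3 and in fits of only the groups compared, and that of 1435333_at also without control mouse 2. C10:0 raised 1 of the 2 Ndufaf4 probesets and lowered no member (background 1.19% higher and 0.406% lower). With C10:0 0 members rose without any of 7 of the 9 mice compared (background then 0.338% to 1.24% higher). Members called numbered 0 with C20:5 (0.512% and 0.0483%), 0 with C18:1 (0% and 0%), 0 with C18:3 (2.46% and 0.947%) and 0 with C18:2 (0.406% and 0.058%), while 4, 8, 4 and 5 members had an unadjusted p under 0.05 (limma, background 9.05%, 7.79%, 14.7% and 11.3%). With these 6 triglycerides the 95% interval lay within ±0.5 for between 174 and 190 of 200 members. For the remaining members the interval reached past ±0.5, so these mice do not set a bound of that size on the change.

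Ndufaf4 had the largest number of calls, and its values with every triglyceride follow. In the first run 1427997_at read 8.33, 8.32 and 8.22 in WT controls, 8.52, 8.75, 8.82, 8.76 and 8.82 with C22:6, 8.57, 8.72, 8.64, 8.52 and 8.66 with C20:5, and 8.37, 8.07, 8.33, 8.28 and 8.57 with C18:1. The C22:6 and C20:5 livers lay above all controls, and the C18:1 livers lay on both sides of them. In the later run it read 8.46, 8.46, 8.60 and 8.43 in controls, 9.04, 8.95, 8.63, 8.79 and 8.99 with C10:0, 8.53, 8.74, 9.00, 8.88 and 8.89 with C18:3, and 9.08, 8.85, 8.71 and 8.69 with C18:2. The C10:0 and C18:2 livers lay above all controls and 1 C18:3 liver did not. The change of Ndufaf4 was 0.39 with C10:0 (SE 0.11, adjusted p = 0.0438, limma). It was 0.34 with C20:5 (adjusted p = 0.254), 0.32 with C18:3 (adjusted p = 0.0958), 0.34 with C18:2 (adjusted p = 0.183) and 0.03 with C18:1 (adjusted p = 0.982). In PPARα −/− livers its changes lay between −0.16 and 0.14 over the 8 treatments, and the difference of response between genotypes was not called for any triglyceride.

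Compounds of the same run were also set against each other, in 14 pairs over both genotypes, at the same volume for the triglycerides and the same dose of both agonists, with p adjusted within each pair over all probesets. C22:6, with more carbons and more double bonds than C18:1, gave a higher signal than C18:1 in WT livers for 4 members and a lower one for 0 (background 3.15% and 1.14%). These were Ndufaf4 (1427997_at, 0.41, SE 0.10, adjusted p = 0.00814), the dim Ndufa12 probeset (0.99, SE 0.26, adjusted p = 0.0135), Mrpl45 (0.48, SE 0.13, adjusted p = 0.0179) and Mrps2, of the small subunit (1420846_at, 0.33, SE 0.095, adjusted p = 0.0266, all limma). Mrpl45 read 5.54, 5.64, 5.38, 5.41 and 5.59 with C22:6 and 4.90, 5.10, 5.24, 4.92 and 4.98 with C18:1, without overlap. In PPARα −/− livers C22:6 gave a lower signal than C20:5 for 1 member and a higher one for 0 (1.43% and 0.986%), namely Mrpl49, of the large subunit (1423218_a_at, −0.44, SE 0.11, adjusted p = 0.0256). The other tested Mrpl49 probeset was not called in this pair. WY14643 exceeded fenofibrate in WT livers for the dim Ndufa12 probeset alone (1.39, SE 0.27, adjusted p = 0.00115, background 1% higher and 0.879% lower). The remaining 11 pairs had 0 members called (limma, background at most 1.03% of all probesets in either direction). In them 2 to 28 members had an unadjusted p under 0.05, against 2.95% to 15.4% of all probesets. The 28 were for C22:6 minus C18:1 in PPARα −/− livers, all lower (14%, against 7.87% of all probesets). For that pair 161 of 200 lay below 0 (80.5% against 54.4%). For C22:6 minus C20:5 there, which shares the C22:6 mice, 181 of 200 lay below 0 (90.5% against 55.3%). Over the 14 pairs 24% to 90.5% of members lay below 0, against 43.5% to 55.6% of all probesets. The 95% interval of the difference lay within ±0.5 for 181 to 193 of 200 members in all 14 pairs.

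In PPARα −/− livers of the later run most members had a lower mean than in controls with all 3 triglycerides. With C18:3 the change was below 0 for 173 of 200 members (86.5%, against 51% of all probesets), with a median of −0.13 on the log2 scale against −0.01. With C10:0 it was below 0 for 177 (88.5% against 57.4%), median −0.13 against −0.04, and with C18:2 for 168 (84% against 53.9%), median −0.09 against −0.02. These 3 comparisons share the same 4 control mice, so they are not separate pieces of evidence. In WT livers of the same run 93 of 200 members lay below 0 with C18:3 (46.5%, against 50.4% of all probesets), 101 with C10:0 (50.5% against 50.5%) and 122 with C18:2 (61% against 45.9%), with medians of 0.01, 0.00 and −0.03.

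**Figure D3:**
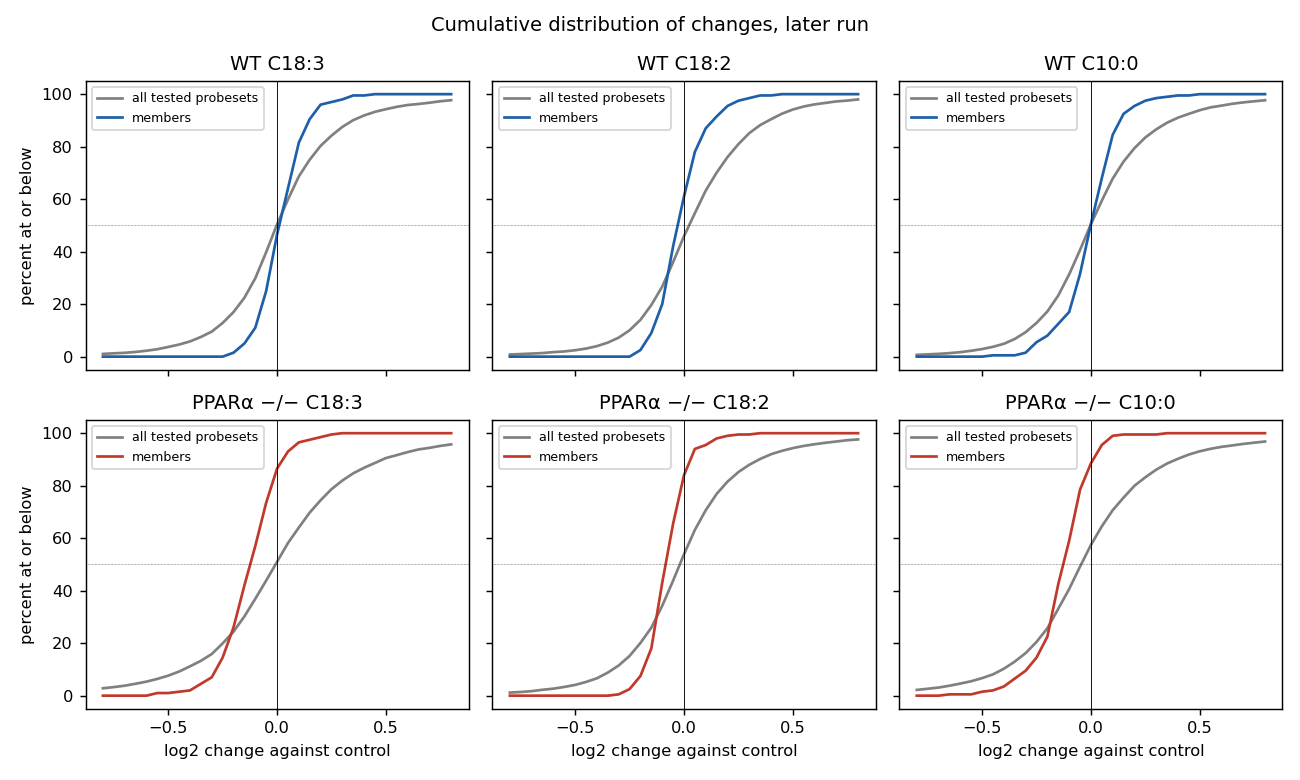
Cumulative percent of probesets (y axis) at or below a log2 change against control (x axis) for C18:3, C18:2 and C10:0 in WT and PPARα −/− livers, for members and for all tested probesets. In PPARα −/− livers the member curve lies to the left, with 86.5%, 84% and 88.5% of members below 0, and in WT livers 46.5%, 61% and 50.5% of members lie below 0, against 50.4%, 45.9% and 50.5% of all probesets.

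Few single members passed the test in these groups. With C18:3 in PPARα −/− livers 1 member rose and 14 fell (background 6.12% and 4.28% of all probesets), with C10:0 0 rose and 8 fell (3.49% and 3.43%), and with C18:2 0 were called (0.242% and 0.116%). At an unadjusted p under 0.05 54 members were lower and 1 higher with C18:3 (background 12.2% and 13.5% of all probesets), 51 and 0 with C10:0 (13.5% and 9.25%), and 11 and 1 with C18:2 (6.59% and 6.91%). In both directions together these are 27.5%, 25.5% and 6% of the members, against 25.7%, 22.8% and 13.5% of all probesets. With C10:0, 30 members (15%) lay below every control mouse and 0 above, against 4.51% and 3.51% of all probesets, and with C18:3 18 (9%) lay below and 0 above, against 4.81% and 4.73%. The difference of response between genotypes was called for 0 members with each of C18:3, C18:2 and C10:0 (background at most 0.647% of all probesets). At an unadjusted p under 0.05 there were 19 members for C18:3 (9.5%), 16 for C10:0 (8%) and 2 for C18:2 (1%), all with the higher response in WT livers, a direction that 6.97%, 3.95% and 3.49% of all probesets had at that threshold. A lower response in PPARα −/− than in WT livers was therefore not shown for any single member.

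The large ribosome subunit and complex I, the classes with the most members, held most of the falls with C18:3 in PPARα −/− livers. The median change was −0.20 for the complex II assembly factors (0 of 4 fell), −0.17 for the large ribosome subunit (6 of 57 fell), −0.13 for the small subunit (2 of 26), −0.14 for complex I (5 of 48), −0.12 for complex V (1 of 25), −0.11 for complex IV (0 of 20), −0.07 for complex III (0 of 10), −0.07 for complex II (0 of 4) and 0.01 for the complex I assembly factors (0 of 6). Among the complex II assembly factors Sdhaf1 and Sdhaf4 had the smallest p with changes of −0.49 and −0.28 (adjusted p = 0.0745 and 0.0765, limma) with C18:3 and −0.44 and −0.26 (adjusted p = 0.13 and 0.122) with C10:0. Sdhaf4 was named after its values were seen. Mrps25, of the small subunit, read 5.75, 5.75, 5.91 and 5.62 in controls and 5.47, 4.88, 5.21, 5.45 and 4.87 with C18:3, and fell by 0.58 (SE 0.16, adjusted p = 0.0148, limma). With C10:0 Mrps25 read 5.69, 5.55, 5.62, 5.84 and 5.68, which overlaps the controls. Mrps36, now known chiefly as a subunit of the 2-oxoglutarate dehydrogenase complex, read 7.69, 7.95, 7.89 and 7.90 in controls and 7.67, 7.43, 7.57, 7.50 and 7.21 with C18:3, and fell by 0.38 (SE 0.12, adjusted p = 0.0309). Neither gene overlapped its controls with C18:3.

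Mrpl11, of the large subunit, read 8.07, 8.11, 7.97 and 8.08 in controls and 7.87, 7.90, 7.68, 7.58 and 7.35 with C18:3 (1437131_x_at), without overlap. It fell by 0.38 (SE 0.097, adjusted p = 0.0073, limma), whereas its second probeset, below the spread filter, changed by −0.06. Mrpl41 (1428588_a_at) read 9.06, 9.30, 9.19 and 9.17 in controls and 9.07, 8.84, 8.89, 8.75 and 8.64 with C18:3, with 1 liver in the range of the controls, and fell by 0.34 (adjusted p = 0.0342). The other Mrpl41 probeset was not called with C18:3. Among genes named after their values were seen, the accessory subunits of complex I Ndufb10, Ndufb7, Ndufa13, Ndufb11 and Ndufa2 fell by 0.30, 0.27, 0.27, 0.22 and 0.22 (adjusted p = 0.038, 0.035, 0.0441, 0.0414 and 0.0388). Ndufb11 was called with 1 (1416056_a_at) of its 3 tested probesets. Mrpl12, Mrpl52 and Mrpl35 fell by 0.34, 0.28 and 0.25 (adjusted p = 0.0337, 0.0429 and 0.0456), and Atp5e, the epsilon subunit of the ATP synthase, by 0.31 (adjusted p = 0.0355). Mrpl52 was called with 1 (1415762_x_at) of its 2 tested probesets. Mrpl15 fell by 0.56 with 1 of its 5 probesets (1430798_x_at, adjusted p = 0.0463). The member that rose was Mrpl24, from 10.50, 10.33, 10.38 and 10.39 to 10.48, 10.65, 10.62, 10.64 and 10.54, by 0.19 (adjusted p = 0.0426), with 1 liver in the range of the controls.

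With C10:0 the falls in PPARα −/− livers lay in the large subunit (5 of 57, class median −0.18), complex V (2 of 25, −0.10) and complex IV (1 of 20, −0.10), and 0 fell in complex I (0 of 48, −0.11), the small subunit (0 of 26, −0.14), the complex II assembly factors (0 of 4, −0.22), complex II (0 of 4, −0.17), complex III (0 of 10, −0.08) and the complex I assembly factors (0 of 6, −0.01, limma). Averaged over its probesets, the complex II assembly factor class was 7.41 ± 0.11 in controls (SD, n = 4), 7.15 ± 0.092 with C18:3 and 7.14 ± 0.069 with C10:0 (n = 5 each), the largest drop of the 9 classes with both. The small subunit was 7.81 ± 0.083, 7.70 ± 0.089 and 7.66 ± 0.038. For both classes the C10:0 livers did not overlap the controls and the C18:3 livers did. Mrpl46 read 7.27, 7.57, 7.45 and 7.46 in controls and 7.03, 6.89, 7.04, 7.03 and 7.10 with C10:0, and fell by 0.42 (SE 0.12, adjusted p = 0.0163, limma). Mrpl14 read 7.39, 7.42, 7.44 and 7.46 in controls and 6.87, 6.46, 7.13, 7.07 and 6.95 with C10:0, and fell by 0.54 (SE 0.17, adjusted p = 0.0433). Neither overlapped its controls. Mrpl41 fell by 0.45 with the probeset 1428589_at (adjusted p = 0.0165), from 8.18, 8.10, 8.19 and 8.03 to 7.55, 7.44, 7.98, 7.64 and 7.76, without overlap. The brighter Mrpl41 probeset was not called with C10:0. Mrpl45 read 6.58, 6.37, 6.77 and 5.91 in controls and 5.88, 6.11, 5.97, 5.96 and 6.02 with C10:0, which overlap, and fell by 0.42 (adjusted p = 0.0443). Mrpl19, named after its values were seen, fell by 0.65 with 1 probeset (adjusted p = 0.0132) and its other probeset changed by −0.34 (adjusted p = 0.262).

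In the chain itself, Cox7a2l, a complex IV family protein that takes part in joining complexes III and IV, read 9.58, 9.42, 9.42 and 9.60 in PPARα −/− controls and 9.23, 9.29, 9.37, 9.27 and 9.13 with C10:0 (1432264_x_at), without overlap. It fell by 0.24 (SE 0.077, adjusted p = 0.0387, limma). Atp5o, the stalk subunit of the ATP synthase that confers oligomycin sensitivity, fell by 0.25 (SE 0.077, adjusted p = 0.0387), from 11.02, 11.19, 11.30 and 11.08 to 10.80, 10.85, 11.04, 10.96 and 10.85, and the ranges overlapped. Its other probeset read 10.06 on average in controls and 10.12 with C10:0. Atp5a1, the alpha subunit, named after its value was seen, fell by 0.16 with 1 (1449710_s_at) of its 3 tested probesets (adjusted p = 0.0446, limma). The brightest Atp5a1 probeset was not called. Of the liver forms of complex IV subunits, Cox6a1, Cox7a2 and Cox8a changed by −0.13 to 0.11, −0.09 to 0.08 and −0.23 to 0.02 over 16 comparisons and were called in none (smallest adjusted p = 0.252, 0.392 and 0.253). The muscle forms Cox6a2, Cox7a1 and Cox8b and the lung form Cox4i2 have no probeset of their own among the 11412 analysed here, a set already filtered on variation, so nothing can be said of their levels.

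Averaged over all 246 member probesets, the log2 signal of PPARα −/− livers in the later run was 9.47 ± 0.059 in controls (SD, n = 4), 9.35 ± 0.077 with C18:3, 9.33 ± 0.048 with C10:0 and 9.39 ± 0.050 with C18:2 (n = 5 each). The ranges overlapped the controls in every case. In WT livers of that run the means were 9.49 ± 0.059 in controls (n = 4), 9.50 with C18:3, 9.48 with C10:0 and 9.47 with C18:2. A single mouse weighed heavily on the C18:3 calls. Mouse 5 of that group had a mean of 9.22, while the next mouse had 9.35, and without it 0 members were called with C18:3 (2.19% and 1.35% of all probesets), although 164 of 200 still lay below 0 with a median of −0.10. Without control mouse 2 or 3 of that run 2 and 4 members fell with C18:3 (2.6% of all probesets in each), and without C18:3 mouse 2 4 fell (2.07%). Across the mice left out in turn, members that fell with C10:0 numbered 2 to 13 and those below 0 numbered 165 to 186. Over the same refits 1.56% to 4.99% of all probesets fell. The counts at their lowest were 2 without control mouse 1, C10:0 mouse 1 or C10:0 mouse 2, 3 without control mouse 3 or C10:0 mouse 5, and 4 without control mouse 2 or C10:0 mouse 4.

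**Figure D4:**
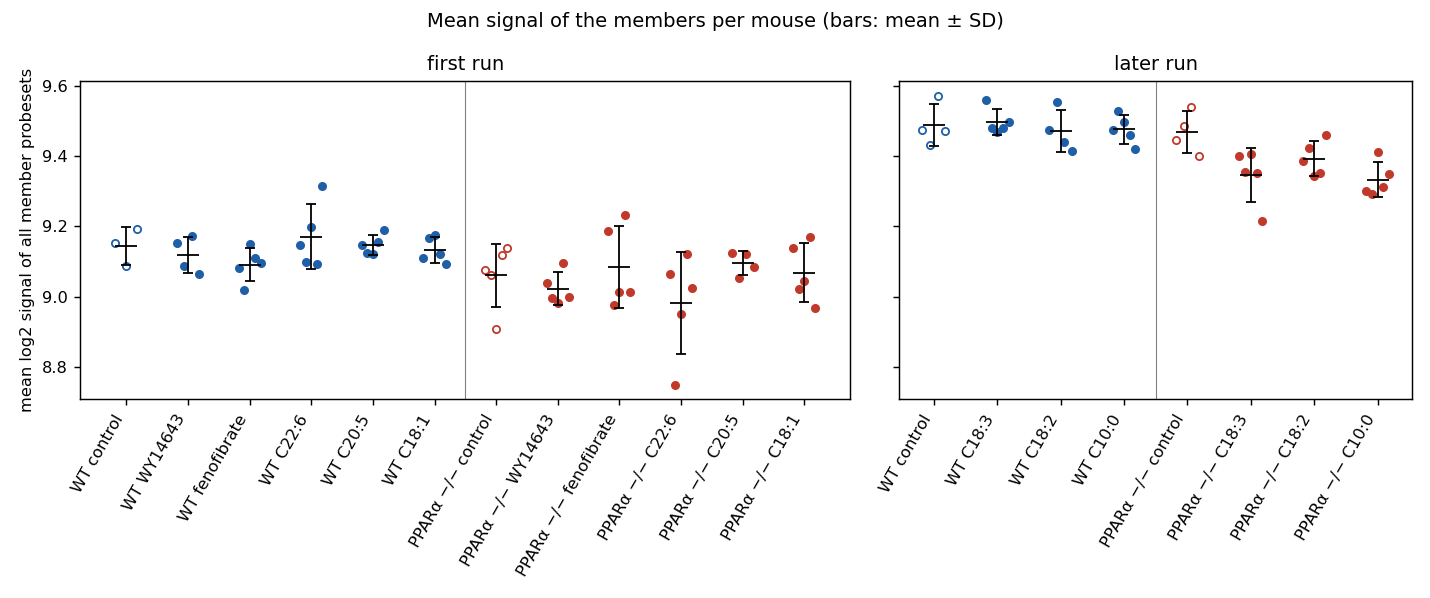
Mean log2 signal over 246 member probesets for each mouse (points; open circles are controls) by treatment, genotype and run, with bars for the group mean and SD. Later-run mice lie above most first-run mice, and within the later run the PPARα −/− C18:3, C18:2 and C10:0 means (9.35, 9.39 and 9.33) lie below that of their controls (9.47) with overlapping ranges.

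Other measures moved with these groups. Setting every array's median to that of its run left 174 of 196 members below 0 with C18:3, 162 with C10:0 and 156 with C18:2, with medians of −0.14, −0.10 and −0.07. Cytosolic ribosome genes, a list of 45 added after its values were seen, had a median change of −0.09 with C18:3 and −0.12 with C10:0 in PPARα −/− livers (1 fell in each), and between −0.07 and −0.10 in the WT livers of that run. Stellate cell and fibroblast markers had a median change of −0.83 with C18:3 (0 of 7 called) and −0.68 with C10:0 (1 of 7 fell), and the log2 of their summed signal ranged from 10.80 to 12.02 in controls, 10.86 to 11.35 with C18:3 and 10.82 to 11.32 with C10:0. The log2 of the summed signal of 6 endothelial markers was higher with C18:3, at 10.44 to 10.61 (median 10.58) against 10.17 to 10.46 (median 10.33) in controls, with a median change of 0.26 and 1 of 6 risen, and with C10:0 it was 10.07 to 10.34. The 12 Kupffer cell markers summed to 11.02 to 11.63 with C18:3 against 10.91 to 11.86, with 0 called. The part of these markers in the member changes was not tested.

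In the first run some members also fell with C22:6 in PPARα −/− livers. There 0 rose and 5 fell (background 6.08% and 8.26% of all probesets), 150 of 200 lay below 0 (75% against 52% of all), and the median was −0.07. Mrpl49 (1423218_a_at) read 7.04, 6.93, 6.66, 6.87 and 7.04 in controls and 6.74, 6.15, 6.42, 6.87 and 6.65 with C22:6, and fell by 0.34 (SE 0.099, adjusted p = 0.0139, limma). The other tested probeset of Mrpl49 (1423219_a_at) was not called. Ndufaf8, an assembly factor of complex I, read 8.76, 8.68, 8.40, 8.71 and 8.97 in controls and 8.44, 8.13, 8.25, 8.38 and 8.45 with C22:6, and fell by 0.37 (SE 0.11, adjusted p = 0.0203). Ndufs1, the iron-sulfur subunit of the electron entry arm of complex I, read 9.37, 9.20, 9.23, 9.22 and 9.65 in controls and 9.18, 8.96, 9.03, 9.39 and 9.02 with C22:6, and fell by 0.22 (SE 0.070, adjusted p = 0.0254). The ranges overlapped for all of these genes.

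Mrpl11 fell by 0.26 (adjusted p = 0.0489) and 1 of the 5 probesets of Mrpl15 (1430798_x_at) by 0.59 (adjusted p = 0.0201) with C22:6 in PPARα −/− livers. Without mouse 2 of the C22:6 group, which had the lowest member mean of the first run (8.75), 0 members were called. The calls over all probesets then also dropped, to 1.85% higher and 1.86% lower. Of the members 114 of 200 then lay below 0, with a median of −0.02. Without other single mice of the C22:6 and control groups between 2 and 18 fell, with 2 without control mouse 1, 3 without control mouse 2 or 5 or C22:6 mouse 3, and 13, 14 and 18 without control mouse 3, C22:6 mouse 1 and C22:6 mouse 4. The share of all probesets that fell moved too, from 5.32% without control mouse 2 to 9.93%, 10.4% and 11% in the last 3 of these. Of 12 Kupffer cell markers 7 rose with C22:6 in these livers (median 1.04), and the log2 of their summed signal was 11.54 to 12.53, against 9.03 to 11.95 in the controls. Its part in the member changes was not tested. The difference of response between genotypes was called for 0 members with C22:6 (2.14% and 0.802%), C20:5 (0.029% and 0%) and C18:1 (0% and 0%), and 15, 1 and 6 had an unadjusted p under 0.05 (limma, background 18%, 4.56% and 7.86%).

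With C18:1 in PPARα −/− livers 1 member rose and 1 fell (background 0.705% and 0.425%), and 0 were called without control mouse 1 or 2 or C18:1 mouse 3 (background then at most 0.377% and 0.135%). Mrpl20, of the large subunit, read 8.38, 8.14, 8.17, 8.62 and 8.82 in controls and 9.07, 8.78, 8.80, 8.93 and 8.74 with C18:1, with overlap, and rose by 0.44 (SE 0.11, adjusted p = 0.0379, limma). Mrpl15 (1430798_x_at) fell from 7.40, 7.57, 6.73, 7.25 and 6.99 to 6.71, 6.41, 6.29, 6.55 and 6.35, by 0.73 (SE 0.18, adjusted p = 0.029), without overlap. The other 4 probesets of Mrpl15, with brighter signals, were not called in any comparison against control. With C20:5 in PPARα −/− livers 0 members were called (0.029% each way) and 3 had an unadjusted p under 0.05 (background 5.25%). Among the probesets that stand for their genes, the smallest p belonged to Atp5l, a membrane subunit of the ATP synthase (0.26, adjusted p = 0.486, limma), and Mrpl33 (0.22, adjusted p = 0.739).

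In untreated livers few single members passed the test between genotypes, but in the first run most members had a lower mean in PPARα −/− livers. In first-run controls 1 member was higher and 5 were lower in PPARα −/− than in WT livers (background 4.02% and 4.91% of all probesets), and in later-run controls 0 and 1 (3.22% and 4.21%). In the first run 143 of 200 members were below 0 (71.5%, against 47.6% of all probesets), with a median of −0.07 against 0.02, whereas in the later run 101 were (50.5% against 47.5%), with a median of 0.00 against 0.01. At an unadjusted p under 0.05 25 members were lower and 3 higher in the first run (background 11% and 11.3%), and 5 and 2 in the later run (9.43% and 10.1%). The first-run count of 5 lower became 1 without WT control mouse 3 or PPARα −/− control mouse 3 and 2 without WT control mouse 2, with 124 to 159 members below 0 as single mice were left out. Without these named mice 3.26% to 3.97% of all probesets were lower. Mrpl17, of the large subunit, was the member called in both. It read 9.26, 9.39 and 9.51 in WT and 9.20, 9.11, 8.87, 8.99 and 8.88 in PPARα −/− first-run controls, and 9.94, 9.39, 9.58 and 9.49 in WT and 9.19, 9.25, 9.08 and 9.35 in PPARα −/− later-run controls. The genotypes did not overlap in either run, and the difference was −0.38 in each (SE 0.12 and 0.12, adjusted p = 0.0365 and 0.0288, limma). The call of Mrpl17 was lost without any of 5 single mice in the first run (WT control mouse 2 or 3, PPARα −/− control mouse 3, 4 or 5) and any of 3 in the later run (WT control mouse 1, PPARα −/− control mouse 1 or 3), and its difference then lay between −0.44 and −0.31 and between −0.45 and −0.27. In the first run Mrpl38 was lower by −0.42 (adjusted p = 0.00283), Mrpl21 by −0.40 (adjusted p = 0.0293), Ndufb3 by −0.39 (adjusted p = 0.022) and Mrpl41 by −0.38 (adjusted p = 0.0303), while Ndufc2 was higher by 0.32 (adjusted p = 0.0303), 4 of these 5 being named after their values were seen. Ndufc2 was called with 1 (1416366_at) of its 3 tested probesets and Mrpl41 with 1 (1428588_a_at) of 2.

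Over the 200 members, the genotype difference correlated between the runs with Pearson r = 0.62 and Spearman rho = 0.55, and 128 (64%) had the same sign. Over all 10349 probesets the values were 0.90, 0.77 and 78.4%. The runs used different mice, the points are genes that share arrays, and the substrain differs with the genotype in both runs, so this is a description only.

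**Figure D5:**
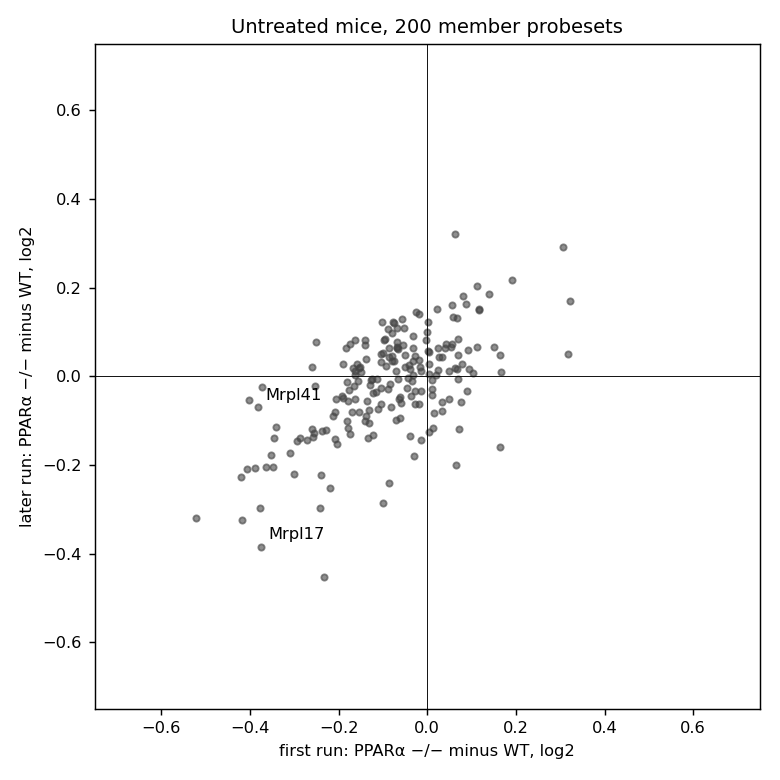
Difference in log2 signal between PPARα −/− and WT controls in the first run (x axis) and the later run (y axis), 1 point for each of 200 member probesets. Points scatter around the diagonal with r = 0.62, and Mrpl17, labelled, lies near −0.38 on both axes.

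Other lists of mitochondrial genes were counted at an adjusted p under 0.05 and are read against the background over all probesets, which in WT livers was 12.5% higher and 14.1% lower with WY14643, 7.39% and 6.08% with fenofibrate and 3.66% and 2.11% with C22:6. Lists are counted by gene, the background by probeset. Of 22 genes for mitochondrial protein import 11 rose (50%) and 1 fell with WY14643 (median 0.29), 7 rose (31.8%) and 1 fell with fenofibrate (0.15) and 3 rose (13.6%) with C22:6 (0.12). Timm9, a chaperone of the intermembrane space, rose by 1.23, 1.00 and 0.77 (adjusted p = 7.18e-09, 1.58e-06 and 0.000704, limma). Grpel2, a cochaperone of the import motor, rose by 1.74, 1.34 and 0.97 in WT livers with the same treatments, and by 0.79 with C22:6 (adjusted p = 0.00997) and 0.85 with C18:3 (adjusted p = 0.0109) in PPARα −/− livers.

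Of 14 genes of cytochrome c and coenzyme Q 4 rose (28.6%) and 1 fell (7.14%) with WY14643 and 2 rose (14.3%) with each of fenofibrate and C22:6. Etfdh, which passes electrons from fatty acid oxidation to coenzyme Q, rose by 0.86, 0.63 and 0.44 (adjusted p = 9.34e-09, 1.43e-05 and 0.0075, limma), and Cycs, cytochrome c, by 0.58, 0.37 and 0.36 (adjusted p = 1.93e-05, 0.00802 and 0.0219). Of 18 regulators of mitochondrial gene expression 2 rose with each agonist (11.1%, near the background), among them Tfam, the packaging and transcription factor of mitochondrial DNA (0.66 and 0.55, adjusted p = 5.43e-08 and 3.71e-06). Tfam fell by 0.22 with C22:6 in PPARα −/− livers (adjusted p = 0.0439), where 3 of the 18 fell (16.7%, against 8.26% of all probesets). Of 18 mitochondrial translation and ribosome assembly genes 5 fell with WY14643 (27.8%) and 2 with fenofibrate (11.1%), and Mtfmt, which formylates the initiator methionyl-tRNA, fell by 1.39 and 0.80 (adjusted p = 0.000128 and 0.0407).

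Of 34 assembly factors with other symbols 3 rose and 4 fell with WY14643 (8.82% and 11.8%), and 1 rose and 2 fell with fenofibrate (2.94% and 5.88%), shares below the background. Sco2, a copper chaperone of complex IV, rose by 1.06 and 0.76 (adjusted p = 0.00021 and 0.012, limma). Dmac2, an assembly factor, fell by 0.51 with WY14643 in WT livers (adjusted p = 0.00499), and in PPARα −/− livers by 0.41 with C18:3 (adjusted p = 0.025) and 0.53 with C10:0 (adjusted p = 0.00475). Of 16 genes of the tricarboxylic acid cycle 2 rose and 1 fell with WY14643 (12.5% and 6.25%, at and below the background), and of 5 inner membrane carriers 0 were called in any comparison. As the comparison list, 16 of 17 fatty acid oxidation enzymes known to respond to PPARα rose with WY14643 in WT livers (median 1.00), 12 with fenofibrate and 11 with C22:6. There 10 rose with C18:3 (background 2.46%), 6 with C20:5 (0.512%), 5 with C10:0 (1.19%), 2 with C18:2 (0.406%) and 0 with C18:1 (0%). In PPARα −/− livers 5 rose with C18:3 (6.12%), 4 with C22:6 (6.08%), 4 with C18:1 (0.705%) and 2 with C10:0 (3.49%). In these livers 1 rose with each of fenofibrate (0.0676%) and C20:5 (0.029%) and 0 with WY14643 and C18:2. With each of C22:6, C18:3 and C10:0 1 fell in PPARα −/− livers.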

How the data were processed

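Liver RNA of 93 mice was measured on Affymetrix arrays, 1 array per mouse. The deposited values are linear probeset intensities that the authors made with GC-RMA (GCRMA 2.20, from the submitters' processing notes), a normalization their methods call quartile and a filter on low variation. Of 11463 probesets 51 control probesets were left out, and log2 was taken. Of the rest 10279 carry 1 symbol, 406 several and 727 none. Arrays carry no read depth, and their number limits the precision.

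The fit was limma 3.58.1 (R 4.3.3) with 1 mean per group over 83 arrays, and over all 93 for C10:0, on probesets with an inter-quartile range of at least 0.25, with p adjusted by Benjamini-Hochberg. The study's threshold, an unadjusted p under 0.01, served for the counts under alternatives. A change is the treated minus the control mean in log2 signal. The labels call the arrays biological replicates. Same-numbered mice are not said to share anything. With WY14643 in PPARα −/− mice all 5 such pairs deviated together (correlations 0.11 to 0.30), a hint from the data alone, and the pairing there left the count of members at p under 0.01 at 1.

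The members and the gene lists were chosen with earlier results of these data known. Named members were the 12 with the most called comparisons, per comparison the 4 largest called changes or the 2 smallest p values, the 6 largest called differences between untreated genotypes in both runs, per treatment the 4 smallest adjusted p values of the genotype difference, and the tissue isoforms of complex IV. From each list the 2 genes of smallest p were named. Others are marked as named after their values were seen, among them the probesets that disagree with another of their gene. Where a gene has several probesets, the brightest of those that passed the spread filter stands for it. Calls are given for every tested probeset, so a called probeset need not be the one that stands for its gene. Alternatives were no filter, an added signal filter (log2 of at least 5 in at least 3 arrays), fits of only the groups compared, array medians set to that of the run, array weights, the replicate number as a block, and each mouse left out in turn. The fit was tested on simulated data. Python 3.11.15 and matplotlib 3.10.9 made the summaries and figures. Plasma, PamChip and quantitative PCR measurements were not analysed here.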

Additional observations from a re-analysis of the deposited data

Results flagged for a closer look

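Single mice stood apart in 11 of 113 sets examined, each the values of 1 probeset or of the mean over all members in 1 group. In independent sets chance flags about 5%. These sets share mice and the probesets were ones with a called change, so 11 is not shown to be an excess. The mean over all members was 9.215 in mouse 5 of the PPARα −/− C18:3 group, and 9.353 in the next mouse. In PPARα −/− first-run controls mouse 3 was lowest for Mrpl11 (7.31, next 7.48), Mrpl41 (8.28, next 8.62) and Mrpl45 (4.65, next 5.08). Mrpl41 was 8.86 in mouse 4 of PPARα −/− WY14643 (next 8.52), and Mrps31 was 8.28 in mouse 3 of WT fenofibrate (next 7.99). In WT C22:6 livers Mrps6 (1424440_at) was 7.25 in mouse 5 (next 6.19), Ndufaf4 (1427997_at) 8.52 in mouse 1 (next 8.75) and Sdhaf1 6.44 in mouse 3 (next 6.22). Ndufaf4 (1435333_at) was 7.61 in mouse 5 of PPARα −/− C22:6 (next 7.88), and Sdhaf1 was 6.09 in mouse 2 of PPARα −/− fenofibrate (next 6.56).

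The response differed between genotypes (WT minus PPARα −/−, limma, adjusted p under 0.05) for 16 member results. With WY14643 the differences were 2.10 for Ndufa12 (1425919_at), 0.88 for Mrpl15 (1430798_x_at), 0.78 and 0.62 for Ndufaf4, 0.71 and 0.69 for Mrps6, 0.68 for Mrpl45, −0.54 for Mrps31, −0.60 for Ndufaf6 and −0.80 for Sdhaf1. This Mrpl15 probeset changed by −0.73 in PPARα −/− livers. In WT livers the 3 tested Mrpl15 probesets changed by 0.14 to 0.23. With fenofibrate they were 0.72 and 0.57 for Ndufaf4, −0.51 for Ndufaf2, −0.52 for Mrpl4, −0.63 for Mrpl41 and −0.82 for Sdhaf1.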

How the results depend on the processing

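Limits: with 3 to 5 mice per group calls near the threshold moved with single mice, and the first-run WT control had 3 mice. Of 57 called changes against control 8 held under every alternative and without every mouse: Mrps30, Mrps31, Ndufaf6, Sdhaf1, the dim Ndufa12 probeset and both Ndufaf4 probesets with WY14643, and Ndufaf4 (1435333_at) with fenofibrate. Mrps31 had too small a spread to be tested after the array medians were set to that of the run. Of 23 called differences between genotypes 3 held (Ndufa12 and both Ndufaf4 probesets with WY14643). Of 80 called single results 60 lost their call in fits of only the groups compared, 15 with array weights, 15 with the replicate block, 7 of 77 with array medians set to that of the run, 1 with no filter and 0 with the signal filter, and 294 of 811 without single mice, and none reversed.

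Counts of members at an unadjusted p under 0.01 were, in WT livers, 17 (WY14643), 7 (fenofibrate), 5 (C22:6), 1 (C20:5), 1 (C18:1), 1 (C18:3), 1 (C18:2) and 3 (C10:0), and in PPARα −/− livers, in the same order, 1, 1, 8, 1, 2, 21, 3 and 17. They were 12 and 1 for the controls in the first and later run (background 5.59% higher and 6.24% lower, and 4.96% and 5.5%). They were 27 over the genotype differences (background per treatment 0.329% to 8.75% in a direction) and 40 over 14 compound pairs (0.203% to 4.93%). Counts under the alternatives below stand without a share of all probesets, so they describe how a count moved and nothing particular to the members. The changes beyond 1.5 times were as follows, and their cause was not tested except that fits of only the groups compared have fewer arrays.

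At an adjusted p under 0.05 WT counts became 2 with C22:6, 1 with C10:0 and 0 with C20:5, C18:1, C18:3 and C18:2, and PPARα −/− counts became 5 with C22:6, 8 with C10:0 and 0 with WY14643, fenofibrate, C20:5 and C18:2, while first-run controls gave 6, genotype differences 16 and compound pairs 6. With array medians set to that of the run WT C18:3 and C18:2 gave 2 each, and PPARα −/− C22:6 and C10:0 gave 5 and 9. With array weights WT counts became 28 (WY14643), 8 (C22:6), 5 (C20:5), 2 (C18:1), 3 (C18:3), 3 (C18:2) and 10 (C10:0), PPARα −/− counts 4 (WY14643), 2 (fenofibrate), 4 (C22:6), 2 (C20:5), 4 (C18:1) and 1 (C18:2), controls 19 and 2, and compound pairs 63. Without the filter WT C18:1 gave 2, PPARα −/− C22:6 13, C20:5 2 and C18:2 5, and later-run controls 3. In fits of only the groups compared WT counts became 11 (WY14643), 4 (fenofibrate), 2 (C22:6), 0 (C18:1), 0 (C18:3) and 1 (C10:0), PPARα −/− counts 0 (fenofibrate), 2 (C22:6), 0 (C20:5), 3 (C18:3), 0 (C18:2) and 4 (C10:0), controls 3 and 0, genotype differences 15 and compound pairs 15. With the replicate block, where the mice share only a number, WT C18:3 gave 2 and PPARα −/− fenofibrate 2, C22:6 15 and C20:5 2.

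Leaving out each mouse in turn gave in WT livers 11 to 15 (WY14643), 5 to 7 (fenofibrate), 2 to 8 (C22:6), 0 to 3 (C20:5), 1 to 2 (C18:1), 0 to 1 (C18:3), 0 to 3 (C18:2) and 3 to 6 (C10:0). In PPARα −/− livers it gave 1 to 2 (WY14643), 0 to 4 (fenofibrate), 3 to 19 (C22:6), 0 to 1 (C20:5), 2 to 5 (C18:1), 4 to 30 (C18:3), 0 to 5 (C18:2) and 10 to 25 (C10:0). First-run and later-run controls gave 4 to 13 and 1 to 3, genotype differences 21 to 31 and compound pairs 32 to 68. First-run controls gave 4 without WT control mouse 3 or PPARα −/− control mouse 3, and compound pairs 68 without mouse 4 of PPARα −/− C22:6.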

Other observations

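Some members below the spread filter were called when every probeset was tested, and all were named after their values were seen. In PPARα −/− livers Ndufaf1, an assembly factor of complex I, fell with C22:6 (−0.33, adjusted p = 0.00726), C10:0 (−0.32, adjusted p = 0.0158) and C18:3 (−0.29, adjusted p = 0.0309) in limma's test. Mrps5 (1448488_at) fell with C22:6 (−0.43, adjusted p = 0.0026) and C10:0 (−0.38, adjusted p = 0.014), and Sdha, the flavoprotein of complex II, with C22:6 (1426689_s_at, −0.23, adjusted p = 0.0127). Mrpl18 fell with C10:0 (−0.36, adjusted p = 0.0334). With C18:3 Sdhaf2 (1452941_at, −0.32, adjusted p = 0.0411) and a second probeset of Ndufb7 (1448331_at, −0.28, adjusted p = 0.0145) fell. In WT livers Mrpl2 fell with WY14643 (−0.38, adjusted p = 0.00626).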
